A study of Mus musculus with 8 samples.

Results

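The genes described here encode the subunits of the mitochondrial respiratory chain and ATP synthase, measured in mouse embryonic stem cell lines made by nuclear transfer. They were chosen by the array annotation's gene symbols: the Ndufa, Ndufb, Ndufc, Ndufs and Ndufv genes of complex I, the Sdh genes of complex II, the Uqcr genes of complex III, the Cox4i, Cox5, Cox6, Cox7 and Cox8 genes of complex IV, and the Atp5 genes of ATP synthase. The symbols gave 99 probes for 80 genes, and 71 of these genes had a probe above background, meaning a detection p under 0.01, on 2 or more of the 8 arrays. The same filter left 8816 genes or unnamed probes in all. By complex, 33 of the 71 belong to complex I, 3 to complex II, 6 to complex III, 14 to complex IV and 15 to ATP synthase. The 9 genes that did not pass were Ndufs1, Ndufab1, Uqcrfs1, Uqcrq, Cox4i2, Cox6a2, Cox7b2, Cox8b and Atp5k, and Sdha is not analysed here. The probe annotated as Ndufs5 now carries the symbol of its copy Ndufs5-ps, and the gene and the copy cannot be told apart here. Ndufa4 is also described as a part of complex IV, and Cox7a2l is a factor of supercomplexes rather than a fixed subunit.

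The study compared 6 lines from tetraploid nuclear transfer (tNT), labelled tetraploid, with 2 lines from nuclear transfer (NT), labelled not tetraploid. Nuclear transfer puts a somatic nucleus into an egg cell freed of its own chromosomes, and the series title speaks of 2 somatic nuclei in 1 egg cytoplasm. The tNT lines 1 to 6 carry the numbers 17, 19, 25, 29, 18 and 25 in the design text, read here as passage, the count of culture splits, while the NT lines carry none, so passage and group cannot be told apart beyond the tNT lines. Each line is 1 array of total RNA, all 8 are labelled as mixed strain and as double sedimentation, a term that the labels do not explain, and they do not say how many cultures stand behind a line. Values are normalized log2 intensities, the brightest probe stands for its gene, and levels of different genes are not compared, because probes bind with different strength. In such bulk samples fewer cells with a transcript and less of it per cell cannot be told apart.

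Mitochondria make most of a cell's ATP by passing electrons from NADH and succinate through complexes I and II, the carrier ubiquinone, complex III, cytochrome c and complex IV to oxygen, while complexes I, III and IV pump protons that drive ATP synthase. Most subunits are encoded in the nucleus, as all those measured here are, and a few in mitochondrial DNA, which in nuclear transfer comes largely from the egg. Embryonic stem cells are known for a high rate of glycolysis beside a working respiratory chain. Some complex IV subunits exist as pairs of genes, one used widely and one restricted to heart and skeletal muscle or testis.

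Promoters are shown first because the nuclear genes of the chain are known as targets of the factors NRF1 and GABPA (an ETS factor), and YY1 has also been linked to them. Of the 71 genes, 60 matched an entry by gene ID in the RefSeq promoter table (build GRCm38.p6, 300 bases around each gene start). They had 65 promoters in all, and Cox8c is not among these genes. The 3 promoters that follow hold the searched letters in capitals: CGCATGCG for NRF1, CCGGAAG for GABPA/ETS (CTTCCGG on the other strand) and AANATGGCG for YY1. They stand for Atp5j, a stalk subunit of ATP synthase and the member with all 3 motifs in 1 promoter, at chr16:84834927-84835226, and for Cox6a1 and Cox8a, the widely used subunits of complex IV, at chr5:115348909-115349208 and chr19:7217567-7217866, all on the minus strand and written 5′ to 3′.
Atp5j: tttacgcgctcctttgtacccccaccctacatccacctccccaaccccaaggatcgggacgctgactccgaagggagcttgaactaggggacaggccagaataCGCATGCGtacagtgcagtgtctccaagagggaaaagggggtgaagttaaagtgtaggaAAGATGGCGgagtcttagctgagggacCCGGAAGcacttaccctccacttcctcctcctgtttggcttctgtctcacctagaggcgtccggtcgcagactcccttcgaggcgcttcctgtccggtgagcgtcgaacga
Cox6a1: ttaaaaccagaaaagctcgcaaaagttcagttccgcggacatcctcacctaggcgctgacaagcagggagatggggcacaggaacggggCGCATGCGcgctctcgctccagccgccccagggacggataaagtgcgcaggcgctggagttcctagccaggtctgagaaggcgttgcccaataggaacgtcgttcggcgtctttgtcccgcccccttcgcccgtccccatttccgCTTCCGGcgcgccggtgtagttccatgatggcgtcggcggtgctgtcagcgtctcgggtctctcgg
Cox8a: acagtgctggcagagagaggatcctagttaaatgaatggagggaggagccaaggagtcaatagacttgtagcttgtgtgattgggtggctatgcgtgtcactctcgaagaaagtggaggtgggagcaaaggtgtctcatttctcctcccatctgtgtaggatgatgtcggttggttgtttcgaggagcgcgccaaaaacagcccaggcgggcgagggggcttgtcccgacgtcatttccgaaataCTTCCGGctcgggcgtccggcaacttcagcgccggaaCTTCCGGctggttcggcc
The next 2 are the isoform pair of complex IV subunit VIb, chosen with their values known. Neither gene passed the test between the groups described below, and a link between letters and values was not tested. Another such pair, Cox7a1 and Cox7a2 of subunit VIIa, had no match in either promoter. Cox6b1, the widely used gene, lies with its promoter at chr7:30626065-30626364 and has 1 ETS match, and Cox6b2, the testis isoform, at chr7:4753045-4753344 with no match, both on the minus strand.
Cox6b1: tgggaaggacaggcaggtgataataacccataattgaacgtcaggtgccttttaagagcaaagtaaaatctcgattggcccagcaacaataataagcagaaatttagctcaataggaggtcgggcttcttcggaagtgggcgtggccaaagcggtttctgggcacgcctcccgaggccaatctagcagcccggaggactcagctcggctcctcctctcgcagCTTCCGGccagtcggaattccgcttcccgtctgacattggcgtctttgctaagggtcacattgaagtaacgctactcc
Cox6b2: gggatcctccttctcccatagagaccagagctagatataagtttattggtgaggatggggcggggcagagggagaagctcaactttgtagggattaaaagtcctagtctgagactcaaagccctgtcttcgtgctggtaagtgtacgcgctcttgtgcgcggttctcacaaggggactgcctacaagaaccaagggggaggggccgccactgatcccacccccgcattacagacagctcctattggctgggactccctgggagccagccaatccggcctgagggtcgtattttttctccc
Both strands were searched and matches of different motifs were allowed to overlap; the NRF1 letters read the same on both strands and were counted once. NRF1 letters stood in 7 of the 65 member promoters (10.8%), against 615 of all 32851 promoters of the same length in the table (1.87%). GABPA/ETS letters stood in 15 member promoters (23.1%), against 8.86% of all, and YY1 letters in 10 (15.4%), against 2.38% of all. By gene, the 10 YY1 matches fell to 7 of the 30 complex I genes and 3 of the 13 ATP synthase genes with an entry in the table. The member promoters were also richer in G and C, with a median of 57.33% against 52.67% for all promoters, and in CpG, with an observed over expected ratio of 0.789 against 0.384, and the part of base composition in the motif shares was not tested. A match says only that these letters lie in the window.

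The identity of the lines was checked by markers: all 10 genes of the stem cell list were above background on all 8 arrays. None of them passed the test between the groups, which does not bear on identity. Of the 25697 probes on an array, 10449 to 10969 were above background. Fibroblast markers, which feeder cells would add, were measured for 8 of 15 genes with a probe, none passed, and their summed linear intensity was 2928 to 5139 in tNT lines and 4036 to 4445 in NT lines. Each of the 8 had its highest tNT value in line 2. Dcn had 9.53 there, 7.76 to 8.91 in the other tNT lines, and 8.67 and 8.38 in NT lines. Acta2 was higher still in both NT lines, and Tagln in NT line 1. The part of feeder cells in the member values of line 2 was not tested. No testis markers were read, which would bear on the testis isoforms Cox8c and Cox6b2. Of the muscle and heart list, which bears on Cox7a1 among the measured restricted isoforms, 4 of 7 genes were measured. In tNT lines 2 of them had higher and 2 lower means. The 2 lower ones, the actins Acta1 and Actc1, passed, with log2 differences of -1.33 and -1.60 (limma, adjusted p = 0.00184 and 0.0316). Myl4 and Myog were higher by 0.66 and 0.33 in the mean and did not pass (adjusted p = 0.259 and 0.645). Actc1 was above background on both NT arrays but only 1 tNT array, so its difference rests on tNT values near background. Myh6, Myh7 and Tnni3 did not pass the filter. Cumulus cell markers were measured for 2 of 9 genes, and none passed.

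The main comparison asks whether respiratory chain transcripts differ between tNT and NT lines. They differed little: 35 of the 71 genes had higher and 36 lower means in tNT lines, with a median difference of -0.0044 on the log2 scale, beside 0.0075 for all 8816 tested. By limma, 1 of the 71 members (1.41%), Cox8c of complex IV, had an adjusted p under 0.05, as did 164 of all tested (1.86%), 79 higher and 85 lower. At an unadjusted p under 0.05 there were 2 members, Cox8c and Ndufb4, where 18% of all tested passed. The groups did not overlap in 11 members, 4 higher and 7 lower in every tNT line, a share of 15.5% beside 21.7% of all tested. The 4 higher ones were Ndufb4, Ndufc2, Cox8c and Cox6c, and the 7 lower ones Ndufa2, Ndufs7, Ndufc1, Uqcr11, Uqcrh, Cox6b1 and Atp5l.

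**Figure D1:**
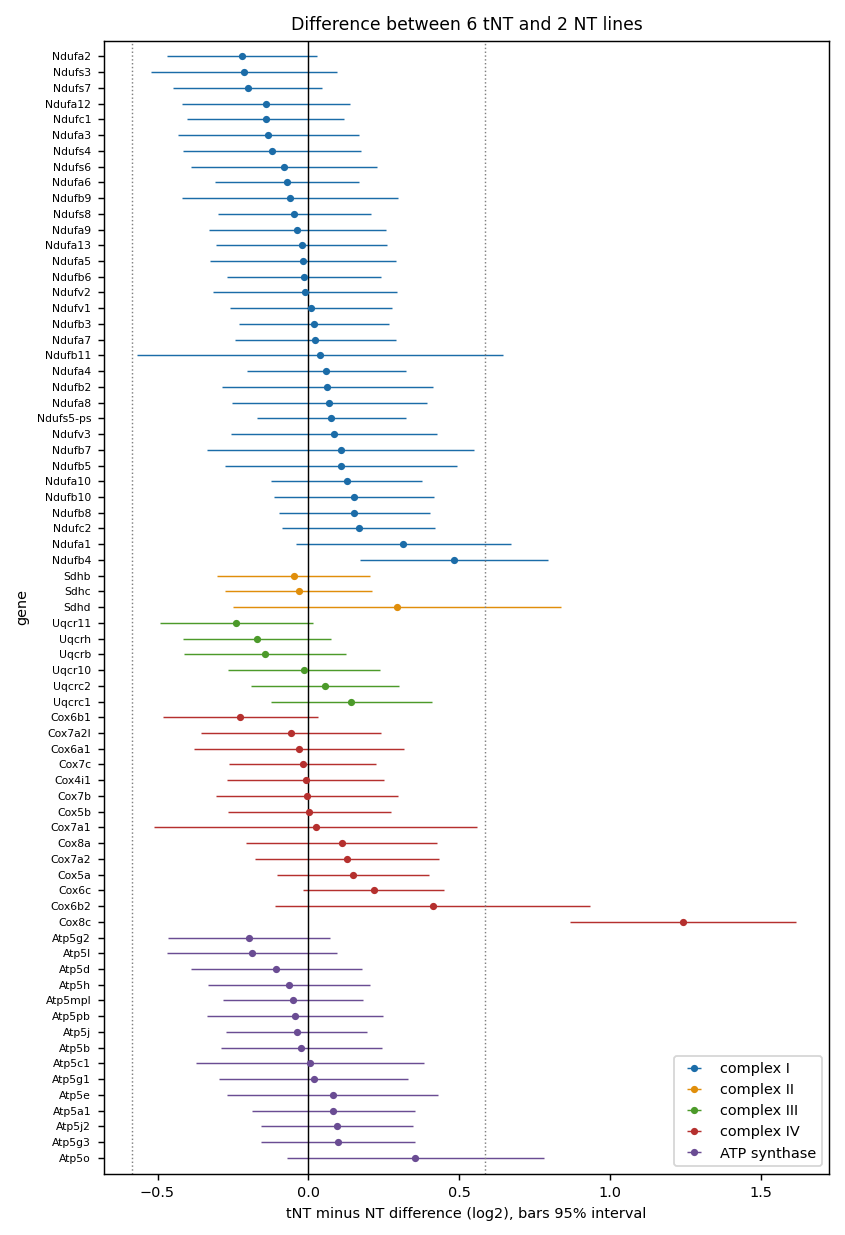
Difference tNT minus NT of each of the 71 genes on the log2 scale (points) with its 95% interval (bars), by complex and ordered by size. Dotted lines mark a 1.5-fold difference either way. Cox8c stands at 1.24, and the other 70 genes lie between -0.24 and 0.48.

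Sizes were small as well. The median absolute difference was 0.0812 among members and 0.184 among all tested, and 1 member (1.41%) differed by more than 0.5, against 1048 (11.9%) of all. The 95% interval of the difference lay within 1.5-fold either way for 64 of the 71 members (90.1%) and for 4328 of all tested (49.1%). The 7 others were Cox8c, Ndufb4, Ndufa1, Ndufb11, Sdhd, Cox6b2 and Atp5o, named here after their intervals were seen. The standard error of a member's difference had a median of 0.12 and ran between 0.10 and 0.27.

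Most members gave bright signals, and the SD between arrays was lower at such signals. Of the members, 54 had a mean log2 intensity of at least 10. The median SD over the 8 arrays was 0.11 for these 54 and 0.15 for the 1779 tested genes of that brightness, beside 0.23 for all 8816. At an unadjusted p under 0.05, 0 of these 54 members passed in limma, against 194 (10.9%) of the 1779 equally bright genes. Of the 17 dimmer members, 2 passed (11.8%), against 19.7% of the 7037 dimmer genes tested. Over all 8 arrays the span between the highest and lowest value had a median of 0.372 among members and 0.686 among all tested.

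**Figure D2:**
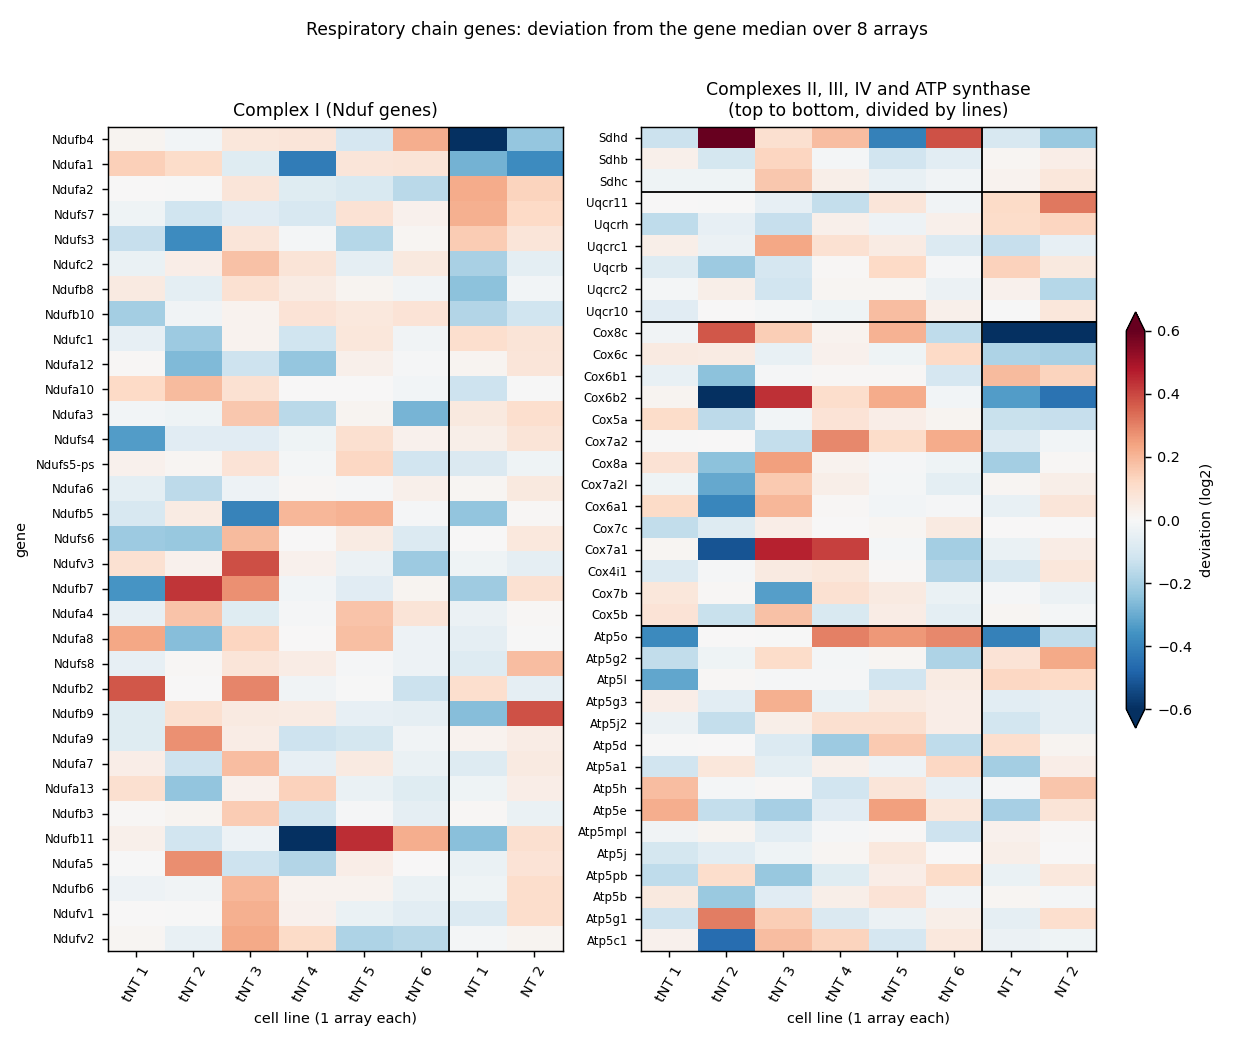
Deviation of each line's log2 intensity from the gene's median over the 8 arrays (colour, red higher and blue lower, colours end at 0.6 either way), with genes down the page by complex and by smallest p and lines across, tNT 1 to 6 left and NT 1 and 2 right of the vertical line. Most cells are pale, and the Cox8c row is dark blue in both NT lines.

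Complex I, the NADH dehydrogenase that starts the chain, had 17 members higher and 16 lower in tNT lines, with a median of 0.01. Its 5 measured core subunits, which carry the NADH site and the iron-sulfur clusters, comprised 1 with a higher and 4 with lower means and had a median of -0.05, and the 28 accessory subunits, which surround and stabilise the core, had a median of 0.03. Ndufb4, an accessory subunit of the membrane arm, had a lowest, median and highest value of 5.53, 5.67 and 5.85 in tNT lines, against 4.99 and 5.40 in NT lines. Its groups did not overlap, the difference was 0.48 ± 0.14 (SE) and the adjusted p was 0.111 in limma, so it did not pass, and only 1 of its 2 NT values was above background. Ndufa1, a small membrane subunit encoded on the X chromosome, had 11.87, 12.36 and 12.43 in tNT lines, against 11.91 and 12.00 in NT lines. Here tNT line 4 lay below both NT lines and the other tNT lines above them, and the difference of 0.32 ± 0.16 (SE) did not pass (adjusted p = 0.344). Ndufa2, an accessory subunit of the peripheral arm, had 11.59, 11.72 and 11.83 in tNT lines, against 11.89 and 11.98 in NT lines, without overlap (difference -0.22, adjusted p = 0.346).

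Other complex I genes varied among the tNT lines more than between the groups. Ndufb11, another X-linked accessory subunit, had values between 5.18 in tNT line 4 and 6.41 in tNT line 5, with 5.72 and 6.06 in NT lines, and was above background on 5 tNT arrays and both NT arrays. Ndufb7 had 7.05, 7.40 and 7.83 in tNT lines, against 7.19 and 7.50 in NT lines. The NT values thus lay inside the tNT range for both of these membrane arm subunits. For Ndufb9 the order was the reverse, since the NT lines had 7.53 and 8.17 and enclosed the tNT lines, with 7.71, 7.78 and 7.88. Ndufs3, a core subunit, had 10.71, 11.01 and 11.16 in tNT lines, against 11.16 and 11.24 in NT lines, and its difference of -0.21 did not pass (adjusted p = 0.462).

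Complex II, or succinate dehydrogenase, feeds electrons from the citric acid cycle into the chain. Its iron-sulfur subunit Sdhb had 9.87, 9.95 and 10.12 in tNT lines, against 9.996 and 10.03 in NT lines, and its membrane anchor Sdhc had 10.87, 10.89 and 11.08 in tNT lines, against 10.94 and 10.99 in NT lines. Both differences, -0.05 and -0.03, were smaller than their standard errors of 0.11. The other anchor subunit, Sdhd, spread more, with 5.93 in tNT line 5, 6.99 in tNT line 2 and a tNT median of 6.47, against 6.11 and 6.23 in NT lines. Its difference of 0.29 ± 0.24 (SE) did not pass (adjusted p = 0.575).

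Complex III passes electrons from ubiquinone to cytochrome c, and 4 of its 6 members had lower means in tNT lines, with a median of -0.08. Uqcr11, one of its smallest subunits, had 12.34, 12.47 and 12.55 in tNT lines, against 12.60 and 12.80 in NT lines. Uqcrh, the hinge protein at the cytochrome c side, had 12.74, 12.85 and 12.92 in tNT lines, against 12.998 and 13.02 in NT lines. Both were lower in every tNT line than in either NT line, by 0.24 and 0.17 in the mean, and neither passed in limma (adjusted p = 0.313 and 0.456). Uqcrc1, a large core protein of the matrix side, had 11.80, 11.93 and 12.11 in tNT lines, against 11.74 and 11.83 in NT lines, with a difference of 0.14 (adjusted p = 0.578).

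Complex IV, cytochrome c oxidase, reduces oxygen and holds the 1 member that passed. Cox8c, the testis isoform of the small subunit VIII, had 6.51, 6.90, 6.68, 6.55, 6.74 and 6.38 in tNT lines 1 to 6, against 5.60 and 5.17 in NT lines 1 and 2. All tNT lines lay above both NT lines, and the span within each group was smaller than the gap between the group means. The tNT mean was 6.63 ± 0.19 (SD, n = 6), against an NT mean of 5.38 ± 0.31 (SD, n = 2). The difference was 1.24 ± 0.17 (SE) on the log2 scale, or 2.37-fold (limma, adjusted p = 0.00850). Cox8c was above background on all 6 tNT arrays but on only 1 NT array, so the size of its difference rests on values near background in NT lines. It was 1.45-fold without background correction and 3.37-fold in the authors' processed values, and the call was lost without NT line 1 (adjusted p = 0.0753), without NT line 2 (adjusted p = 0.188) and with tNT lines of passage 17 to 19 alone (adjusted p = 0.0666).

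**Figure D3:**
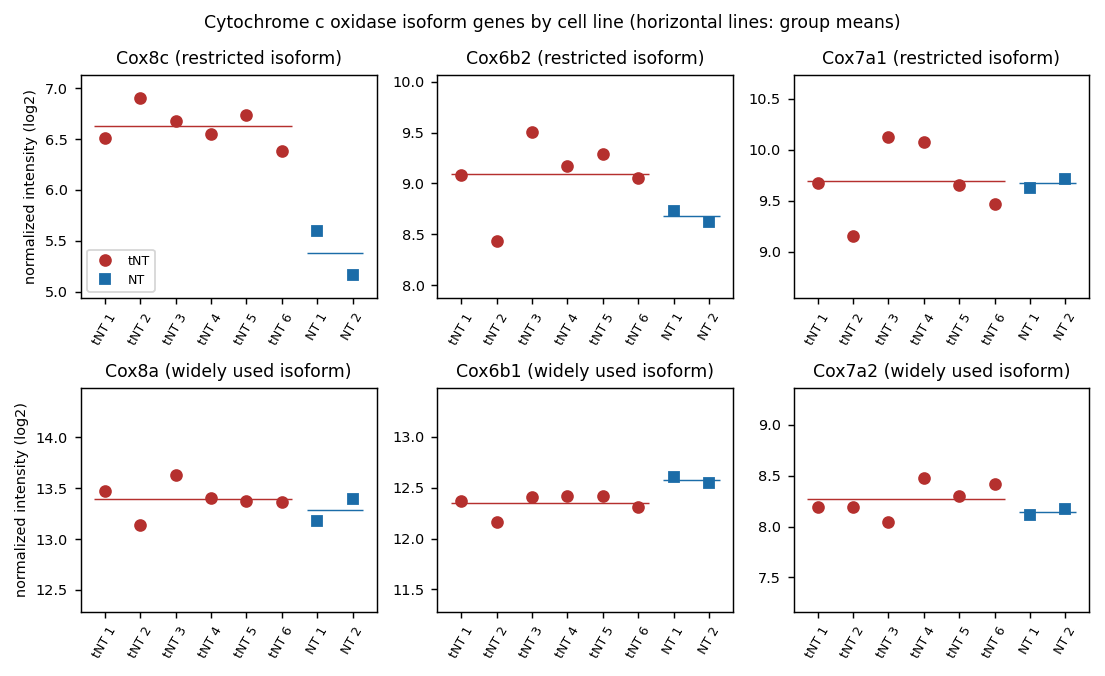
Normalized log2 intensity of the 3 restricted (top) and the 3 widely used (bottom) complex IV isoform genes in each line, tNT in red and NT in blue, with horizontal lines at the group means. Each panel spans the same log2 range. For Cox8c all red points lie above the blue ones, while for Cox7a1, Cox7a2, Cox8a and Cox6b2 the groups overlap.

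Of 8 restricted isoform genes listed, 7 have a probe, and Cox4i2, Cox6a2, Cox7b2 and Cox8b were above background on no array. Cox6b2, the testis isoform of subunit VIb, had 8.44, 9.13 and 9.503 in tNT lines, against 8.62 and 8.73 in NT lines. Of the tNT lines, 5 lay above both NT lines and line 2 below both, and the difference of 0.41 ± 0.23 (SE) did not pass (adjusted p = 0.401). Its widely used partner Cox6b1 went the other way, with 12.16, 12.39 and 12.42 in tNT lines, against 12.54 and 12.60 in NT lines, a difference of -0.23 without overlap that did not pass either (adjusted p = 0.347). A second probe of Cox6b1 gave -0.26. Cox7a1, the heart and skeletal muscle isoform of subunit VIIa, had 9.15 in tNT line 2, 10.13 in tNT line 3 and a tNT median of 9.67, against 9.63 and 9.71 in NT lines, a difference of 0.02. The widely used genes Cox8a and Cox7a2 differed by 0.11 and 0.13 (adjusted p = 0.744 and 0.677).

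Among the other complex IV genes the groups stayed close. Cox6c, a small membrane subunit, had 11.70, 11.78 and 11.86 in tNT lines, against 11.55 and 11.56 in NT lines, which did not overlap, with a difference of 0.22 (adjusted p = 0.320). Cox6a1, the widely used subunit VIa whose promoter is printed above, had 12.57 in tNT line 2 and between 12.94 and 13.16 in the other tNT lines, against 12.92 and 13.03 in NT lines. The other members of the complex, among them Cox4i1, Cox5a and Cox5b, which surround the core made by mitochondrial DNA, had differences between -0.06 and 0.15.

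ATP synthase, which turns the proton gradient into ATP, had 7 members with higher and 8 with lower means in tNT lines, with a median of -0.02. Its 5 measured subunits of the catalytic F1 part, Atp5a1, Atp5b, Atp5c1, Atp5d and Atp5e, differed by between -0.11 and 0.08. Atp5o, the stalk protein that makes the enzyme sensitive to oligomycin, had 8.70, 9.21 and 9.38 in tNT lines, against 8.67 and 8.93 in NT lines. Its tNT line 1 lay between the NT lines and the others above both, and the difference of 0.36 ± 0.19 (SE) did not pass (adjusted p = 0.372). Atp5g2, one of 3 genes for the ring subunit c, had 10.99, 11.16 and 11.29 in tNT lines, against 11.26 and 11.41 in NT lines (difference -0.20, adjusted p = 0.436), while the other ring genes Atp5g1 and Atp5g3 differed by 0.02 and 0.10. Atp5l, a membrane subunit, had 10.70, 11.01 and 11.06 in tNT lines, against 11.13 and 11.14 in NT lines, without overlap (difference -0.19, adjusted p = 0.483).

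More than 1 probe passed the filter for 11 members, with 14 further probes, and none of the 14 passed the test. Their differences lay between -0.29 and 0.39, for instance 0.01 beside -0.03 from the brightest probe of Cox6a1. For Ndufb6, a membrane arm subunit of complex I, the brightest probe gave -0.01 and a dimmer one 0.39 (adjusted p = 0.292).

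Line by line, the median of a complex minus the NT mean ran between -0.14, in complex II of tNT line 5, and 0.14, in complex IV of tNT line 3. For complex I the medians of tNT lines 1 to 6 minus the NT mean were -0.02, -0.02, 0.14, -0.02, 0.00 and -0.05. For complex IV they were 0.08, -0.10, 0.14, 0.11, 0.06 and 0.02, and for complex III -0.14, -0.10, -0.12, -0.07, 0.05 and -0.05. Line 3 thus stood highest in complexes I and IV and line 2 lowest in complex IV, while in complex III all but line 5 lay below the NT mean. Some of these small offsets depended on the scaling. With median scaling in place of quantile normalization the complex I median of line 3 was -0.01 and that of line 5 was -0.11. Other normalizations and the authors' processed values gave 150 such medians of tNT lines. Of these, 133 moved by less than the SD between the tNT line medians of their complex, and 17 moved further.

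**Figure D4:**
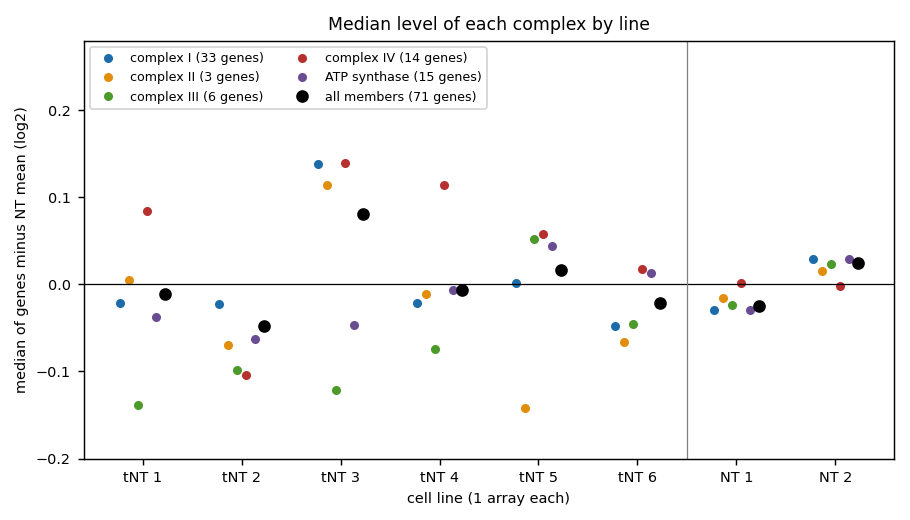
Median over the genes of each complex of the log2 intensity minus the mean of the 2 NT lines, for each tNT line (left) and NT line (right of the vertical line), with all 71 members in black. All points lie between -0.14 and 0.14.

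Counting single genes, those at least 0.3 above both NT lines numbered 3, 4, 5, 6, 5 and 7 of the 71 in tNT lines 1 to 6, and those at least 0.3 below both numbered 2, 6, 0, 1, 0 and 1. Over all tested genes the shares per line were 13.7% to 16.6% above and 12.4% to 16.9% below. Cox8c was among the genes above in every tNT line, and Cox6b2 in all but line 2. The 6 genes below in line 2 were Ndufs3, Cox6a1, Cox6b1, Cox7a1, Cox7a2l and Atp5c1. Line 2 also had the highest tNT values of the measured fibroblast markers. The NT lines themselves differed by at least 0.3 for 5 members (7.04%), against 18.3% of all tested genes. Of the 71 members, 21 had their lowest value in line 2 alone and 21 their highest in line 3 alone, larger shares than the 20% and 15.5% of all tested. Line 2 alone was also highest for 8 members and 20.9% of all tested. Line 3 alone was lowest for 6 members and 13.5% of all tested.

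Passage asks whether subunit levels moved with time in culture among the tNT lines. None of the 71 passed in limma (0 at an unadjusted p under 0.05 as well), where 0% of all tested passed at an adjusted p of 0.05 and 4.44% at an unadjusted p under 0.05. With array weights 0 members and 2 of all tested genes passed. The median slope was 0.0032 per passage on the log2 scale, with 43 positive and 28 negative slopes. Over all tested the median slope was -4e-04, with 4333 positive and 4483 negative slopes. The smallest member p was that of Ndufa1, with a slope of -0.036 ± 0.016 (SE) per passage (unadjusted p = 0.0569 in limma, adjusted p = 0.994), followed downwards by Ndufb11 at -0.056 and Atp5d, an F1 subunit, at -0.024. The smallest p values upwards belonged to Cox7a1, at 0.044 per passage, Atp5o, at 0.032, and Ndufs3, at 0.024. Both Ndufa1 and Ndufb11 had their lowest value in tNT line 4, the line of passage 29.

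Some members stood apart in 1 line on the same side as the other genes of their chromosome, and others did not. Chromosome-wide shifts in single lines were known from all genes when the members were set against them. On chromosome 2 the 5 members had a median deviation of -0.25 in tNT line 2, where the 648 tested genes of the chromosome had -0.18. Line 2 alone was lowest for 3 of the 5, the core subunit Ndufs3, the accessory subunit Ndufa8 and the F1 stalk subunit Atp5c1, and it tied with NT line 1 for the ring gene Atp5g3. Atp5c1 had 12.08 in line 2 and between 12.43 and 12.71 in the other tNT lines, against 12.50 in both NT lines. On chromosome 3 the 3 members had a median of -0.23 in tNT line 3, beside -0.20 for 386 genes, and line 3 was lowest for Ndufb5 and Atp5pb. The remaining member, Ndufc1, lay 0.02 above its median in line 3 and was lowest in line 2. Ndufb5, a membrane arm subunit, had 7.78 in line 3 and between 8.09 and 8.395 in the other tNT lines, against 7.95 and 8.19 in NT lines.

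On chromosome 10 all 5 members, Ndufs7, Ndufa12, Uqcr11, Atp5b and Atp5d, had lower means in tNT lines, with a median of -0.14, beside -0.11 for 390 genes of which 264 were lower. On the X chromosome Ndufa1 and Ndufb11 were lowest in tNT line 4 while Cox7b, a complex IV subunit, was highest there, and the 274 genes had a median of -0.14 in that line. On chromosome 6 the 4 members had a median of 0.22 in tNT line 2, beside 0.14 for 398 genes. On chromosomes 8 and 17 the members did not follow the other genes. The 3 members of chromosome 8 had a median of -0.0068 in tNT line 2, beside 0.13 for 437 genes, and the 5 members of chromosome 17 a median difference between the groups of 0.02, beside -0.09 for 418 genes. The part of chromosome-wide shifts in these values was not tested. Without the members on chromosomes 2, 3, 10 and X, the remaining 55 had a median difference of 0.0034 and again 1 call.

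**Figure D5:**
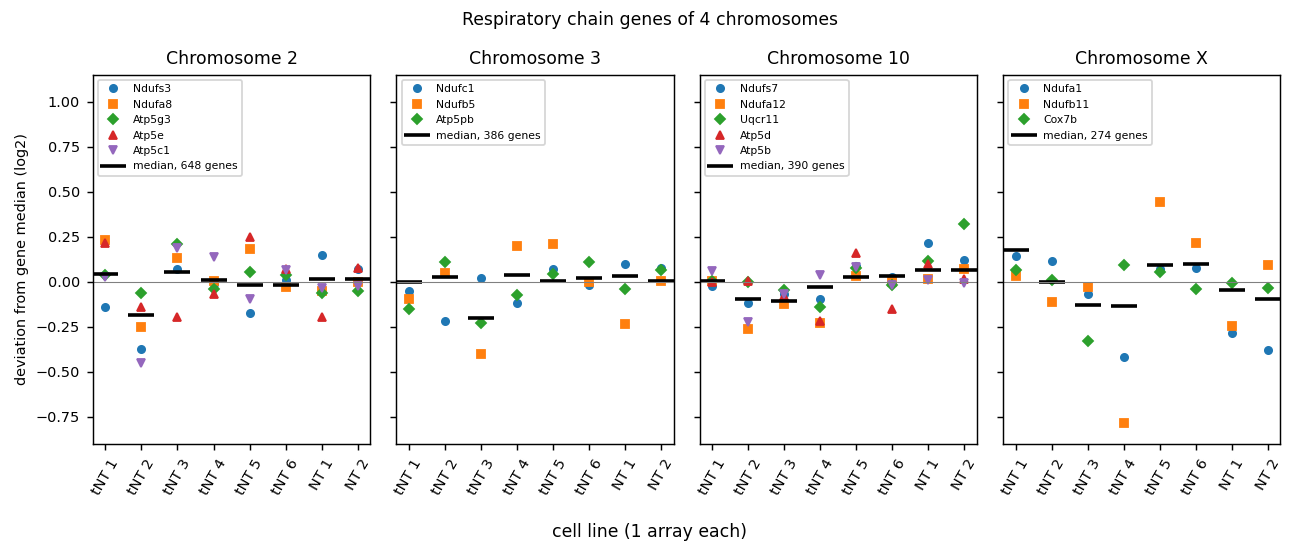
Deviation of each member on chromosomes 2, 3, 10 and X from its median over the 8 arrays (log2), by line, tNT 1 to 6 left and NT 1 and 2 right, with black bars for the median of all tested genes of the chromosome. Members of chromosome 2 lie below 0 in tNT line 2, and Ndufb11 lies lowest in tNT line 4.

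Genes that build, supply or serve the chain were read beside it, from lists outside the rule, and 0 genes of these lists passed an adjusted p of 0.05 in limma. At an unadjusted p under 0.05, which 18% of all tested passed, the shares of the lists ran between 4.35% and 16.7%. Of 37 assembly factors measured, 16 had higher and 21 lower means in tNT lines (median -0.04), and 4 (10.8%) had an unadjusted p under 0.05. The smallest p values were those of Cox20, a chaperone of complex IV assembly, lower by 0.57 in the mean, Acad9, a complex I assembly factor, higher by 0.46, and Ndufaf7, a methyltransferase for complex I, lower by 0.45 (adjusted p = 0.130, 0.138 and 0.140). Of 17 electron carriers and other chain proteins, 7 had higher and 10 lower means (median -0.06, 2 with unadjusted p under 0.05). They included Hccs, the X-linked enzyme that attaches heme to cytochrome c, with a difference of 0.77 (adjusted p = 0.107), and the electron transfer flavoprotein subunits Etfa and Etfb, with 0.30 and -0.25.

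Among 22 regulators of mitochondrial DNA and biogenesis, 14 had higher and 8 lower means (median 0.08, 2 with unadjusted p under 0.05). Tfb2m, a transcription factor of mitochondrial DNA, came nearest to the threshold, with 8.41 to 8.73 in tNT lines, against 7.96 and 8.10 in NT lines, a difference of 0.55 without overlap (limma, adjusted p = 0.0600). Top1mt, the mitochondrial topoisomerase, and Gabpa differed by 0.43 and 0.33 (adjusted p = 0.133 and 0.360). Of 18 genes of the citric acid cycle and pyruvate dehydrogenase, 6 had higher and 12 lower means (median -0.04, 3 with unadjusted p under 0.05), and those of smallest p were Idh3a, Pdk3 and Idh3g, at 0.50, 0.43 and 0.32. Of 23 import genes, 11 had higher and 12 lower means (median -0.0046, 1 with unadjusted p under 0.05), with Timm21, Tomm22 and Timm50 at -0.87, 1.28 and -0.17.

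Tomm22, a receptor of the outer membrane import pore, had 6.39, 6.48 and 6.60 in tNT lines 1 to 3 and 9.10, 8.89 and 8.69 in tNT lines 4 to 6, against 6.58 and 6.25 in NT lines, so 3 tNT lines lay far above the rest and 3 near the NT values (adjusted p = 0.437). Of 13 inner membrane exchange and antioxidant genes, 3 had higher and 10 lower means (median -0.20, 2 with unadjusted p under 0.05), led by Prdx3, Glrx2 and the phosphate carrier Slc25a3, at -0.41, -0.41 and -0.22. Of 70 mitochondrial ribosomal proteins, 28 had higher and 42 lower means (median -0.05, 8 or 11.4% with unadjusted p under 0.05, against 18% of all tested), and Mrpl54, Mrpl36 and Mrps30 differed by -0.50, -0.46 and 0.36 (adjusted p = 0.0892, 0.124 and 0.115).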

How the data were processed

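For each of the 6 tNT and 2 NT lines, total RNA was labelled with biotin as cRNA and measured on 1 Illumina bead array. The deposited table gives per probe a linear intensity and, per the file headers, a detection p-value. A second deposited table holds the authors' processed values on a log2 scale, made with an unstated background step. Per the submitters' processing notes the tools were BeadStudio 3.2, RMA and lumi, and the notes' list gives no order. Here neqc of limma 3.58.1 (R 4.3.3, offset 16) was run on the deposited intensities, which corrects background and then normalizes by quantiles. Quantile normalization gives all arrays 1 distribution, so differences in total RNA per cell are not measured. Chromosomes and current symbols came from RefSeq tables of GRCm38.p6, matched for all 71 members, and no build is named for the array.

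Groups were compared, and passage was fitted over the 6 tNT lines, with lmFit and eBayes, 2-sided, with Benjamini-Hochberg adjustment over all 8816 tested at 0.05. The spread behind each p-value is that between lines, and precision is limited by 6 against 2 arrays. No 2 arrays were copies, since at most 1 intensity was equal in a pair. The fits were tested on simulated data. Motifs and figures used Python 3.11.15 with pandas 2.3.3 and matplotlib 3.10.9.

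The members and lists were chosen with earlier results of these data known. Named genes were members past the threshold, the 3 of smallest p per complex, the 10 of largest range and of largest SD among tNT lines, the 3 of smallest passage p per direction, the restricted isoforms, and the 3 of smallest p per other list. Members named beyond this rule were chosen with their values known. The alternatives were other normalizations and backgrounds, detection filters, probe choices, variance models, array weights, single lines left out, line number as a block, passage ranges and, added after seeing the data, some members left out.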

Additional observations from a re-analysis of the deposited data

Results flagged for a closer look

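Of the 30 sets of 6 tNT values examined, 2 held a line that stood apart. Its gap to the nearest other line, over the tNT range, was above Dixon's 95% critical value for 6 values. Chance flags about 1 in 20 sets only where sets are taken without regard to their spread. Some genes examined, Cox6a1 among them, were named for a large SD among tNT lines, so this rate does not hold for them. The complex I median of tNT line 3 was 0.138 above the NT mean (gap over range 0.732), while the other 5 tNT lines lay between -0.05 and 0.00. Under median scaling it was -0.01. Cox6a1, the widely used subunit VIa of complex IV, had its lowest tNT value in line 2, at 12.57 (gap over range 0.634). Its second probe was lowest in line 2 as well, at 12.22, with 12.49 to 12.71 in the other tNT lines, against 12.51 and 12.52 in NT lines.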

How the results depend on the processing

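The members called numbered 1 in most settings. They numbered 0 where a gene had to be above background on all 8 arrays, which removes Cox8c from the test, 0 with tNT lines of passage 17 to 19 alone, and 3 with array weights, where Ndufb4 and Cox6b2 joined (adjusted p = 0.0281 and 0.0399 in limma). Leaving out each line gave 0 to 1, with 0 without NT line 1 or NT line 2. Over all tested the 164 calls became 1381 with array weights and 27 with passage 17 to 19 alone. Leaving out each line gave 6 to 582, with 6 when NT line 1 was absent, 7 when NT line 2 was and 582 when tNT line 2 was. The count was 80 to 97 when any other tNT line was absent. For passage, array weights gave 2 calls over all tested and 0 members. The median difference of the members stayed between -0.0415 and 0.0265. Of 497 values of named genes under the alternatives, 469 kept their direction and side of the threshold, 23 of genes not past the threshold turned sign, 3 lost the call, 2 gained it, and no called value turned sign. A block by line number compared only lines 1 and 2 of both groups. The other tNT lines have no NT line of their number and added nothing to this difference. The fit gave 1 member, 157 of all tested and a member median of -0.0199. The deviations of same-numbered lines correlated at 0.0411 and 2e-04. With 2 NT lines the deviations of 1 mirror those of the other, so these values cannot show whether the numbers pair lines. Signal over background limits the 17 members of mean log2 intensity under 10, and Ndufb4, Ndufb11, Cox8c and Atp5e were above background on 7 arrays.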
